A study of Homo sapiens with 2 samples.

Results

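The 9 genes examined here encode transcription factors of epithelial cells: the ETS factors SPDEF, ELF3, EHF and ELF5, the grainyhead-like factors GRHL1, GRHL2 and GRHL3, and the zinc-finger factors OVOL1 and OVOL2. Each gene was taken with 50 kb either side of its annotated gene body (GENCODE release 44, hg38), and every peak overlapping that window was assigned to it. The windows held 420 of the 245736 peaks of replicate 1 and 434 of the 259745 peaks of replicate 2. The 9 genes were 9 of 20033 protein-coding genes measured in the same way.

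The data were peaks of chromatin accessibility, measured by ATAC-seq (sequencing of DNA cut by a transposase), from CAMA-1, an established estrogen receptor-positive breast cancer cell line of luminal type. The labels give its tissue as breast (mammary gland) and its cell type as epithelial. There were 2 biological replicates, each made from 50000 untreated cells grown in DMEM with fetal bovine serum, and they form 1 condition, so that there was no contrast between treatments and no test between groups could be made. A line kept in long-term culture represents one tumor and not the mammary epithelium as a whole.

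In mammary epithelium, luminal cells line the ducts and lobules, and ELF5 is known as the ETS factor of the alveolar luminal progenitors that give rise to milk-producing cells. SPDEF, ELF3 and EHF are ETS factors of secretory and barrier epithelia. ETS factors bind sites built on a GGAA core. Grainyhead factors bind a palindromic sequence, keep cell junction genes such as CDH1 active and can open chromatin that is closed to other factors, while OVOL1 and OVOL2 repress genes of epithelial-mesenchymal transition such as ZEB1. In ATAC-seq the Tn5 transposase cuts exposed DNA, so a peak marks accessible chromatin and is not a measure of transcription.

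The height of each peak is given as the fold enrichment over background that the peak caller reported. The deposited values correspond to 1 background level per replicate, 3.35 reads in replicate 1 and 3.52 in replicate 2. A TSS peak is a peak within 1 kb of any annotated transcription start site (TSS) of the gene, and the canonical TSS is that of the transcript GENCODE marks as canonical. An open region is a stretch covered by overlapping peaks of both replicates. Of 455 stretches under any peak in the 9 windows, 372 were open regions (81.8%, 95% Wilson interval 77.9 to 85.0), beside 77.1% of 279030 across the genome. The 34 stretches found in replicate 1 alone reached a fold enrichment of 5.75 at most, and the 49 found in replicate 2 alone reached 7.96. Between replicates, the log2 ratio of fold enrichment over the 372 regions had an SD of 0.29, the same as over all 215195 regions called in both.

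The cell type label was set against marker genes. All 7 luminal markers (KRT8, KRT18, KRT19, EPCAM, ESR1, GATA3 and FOXA1) had a TSS peak in both replicates. The 5 basal markers did too, beside 79.3% of protein-coding genes. The median of the strongest TSS peak was 87.6 for luminal and 10.3 for basal markers, beside 39.4 for protein-coding genes. These sets overlapped, as the basal marker ACTA2 had a mean of 58.3, above GATA3 (49.1) and ESR1 (31.9). ESR1 was also below the median of protein-coding genes. Of the blood markers, CD14 had a TSS peak of 47.9 and 52.6, and PTPRC, CD3E and SPI1 had none in either replicate. PECAM1 of endothelial cells had none, while CDH5, COL1A1 and PDGFRB had TSS peaks of 60.9, 70.3 and 65.9. TSS peaks therefore also occurred at genes that mark other cell types.

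The sequences below are shown because each lies under, or at the edge of, a peak described further on. For SPDEF, ELF5, GRHL1 and GRHL3 they are the 200 bases before the TSS cluster that holds the canonical TSS: SPDEF chr6:34556334-34556533 (minus strand), ELF5 chr11:34513806-34514005 (minus), GRHL1 chr2:9951493-9951692 (plus) and GRHL3 chr1:24319157-24319356 (plus). For ELF3 they are the 200 bases before its most upstream TSS, chr1:202007745-202007944 (plus). EHF-210 is an inner transcript of EHF, shown by the 200 bases before its TSS, chr11:34632264-34632463 (plus). The ELF5 upstream region is the middle 200 bases, chr11:34537821-34538020 (plus), of the strongest region of the ELF5 window away from any TSS. None of these stretches overlaps an annotated exon of the gene it is listed under. All are hg38, read 5′ to 3′ on the strand named. Capitals mark AGGAAG (an ETS core), TGANTCA (AP-1), CCAAT (the CCAAT box) and TGTTTAC (a forkhead site), or their reverse complements.
SPDEF: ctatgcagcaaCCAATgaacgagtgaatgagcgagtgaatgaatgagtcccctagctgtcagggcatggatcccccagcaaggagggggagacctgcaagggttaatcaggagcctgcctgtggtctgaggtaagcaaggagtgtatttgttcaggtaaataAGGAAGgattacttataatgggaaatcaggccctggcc
ELF3: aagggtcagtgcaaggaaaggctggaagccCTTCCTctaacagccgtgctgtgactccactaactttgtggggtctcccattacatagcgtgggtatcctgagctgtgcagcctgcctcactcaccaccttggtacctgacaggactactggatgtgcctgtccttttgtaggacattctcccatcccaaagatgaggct
EHF-210: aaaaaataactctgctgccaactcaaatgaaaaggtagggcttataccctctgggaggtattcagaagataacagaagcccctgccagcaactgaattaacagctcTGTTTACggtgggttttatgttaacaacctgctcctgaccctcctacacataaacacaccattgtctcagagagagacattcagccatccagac
ELF5: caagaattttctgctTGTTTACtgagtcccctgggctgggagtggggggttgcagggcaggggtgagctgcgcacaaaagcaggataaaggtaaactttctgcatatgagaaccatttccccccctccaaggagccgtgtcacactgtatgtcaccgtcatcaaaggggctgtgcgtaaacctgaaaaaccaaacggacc
ELF5 upstream region: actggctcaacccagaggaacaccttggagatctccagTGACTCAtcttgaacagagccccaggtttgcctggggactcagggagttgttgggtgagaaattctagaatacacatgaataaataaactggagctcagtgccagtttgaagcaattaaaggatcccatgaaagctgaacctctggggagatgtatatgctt
GRHL1: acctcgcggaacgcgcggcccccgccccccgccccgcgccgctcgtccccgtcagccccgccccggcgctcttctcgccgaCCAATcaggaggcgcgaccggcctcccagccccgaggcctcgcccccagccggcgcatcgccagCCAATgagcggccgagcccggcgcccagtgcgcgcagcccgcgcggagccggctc
GRHL3: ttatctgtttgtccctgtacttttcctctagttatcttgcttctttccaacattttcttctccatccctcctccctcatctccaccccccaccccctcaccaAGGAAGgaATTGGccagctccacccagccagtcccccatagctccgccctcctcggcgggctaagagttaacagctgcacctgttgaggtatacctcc

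Every member had an accessible TSS. A TSS peak was present in both replicates for 9 of 9 members, and 79.3% of protein-coding genes had one under the same rule. Of the 55 distinct TSSs annotated for the 9 genes, 47 had a peak within 1 kb in both replicates, beside 63.8% of 146431 TSSs of protein-coding genes. At the most upstream TSS alone, 8 of 9 members had a peak, beside 71.7% of protein-coding genes, and ELF5 was the member without one. By the mean of the replicates, the strongest TSS peak of the members had a median of 107, beside 39.4 for all protein-coding genes. The order from the highest was ELF3, GRHL2, OVOL1, OVOL2, EHF, SPDEF, GRHL3, GRHL1 and ELF5. GRHL2 (131 and 138) and OVOL1 (129 and 139) did not differ beyond the replicate spread. OVOL2 (118 and 122) exceeded EHF (113 and 101) in both replicates, by less in replicate 1 than the gap between the replicates of EHF. All other neighbors in the order held the same rank in both replicates.

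**Figure D1:**
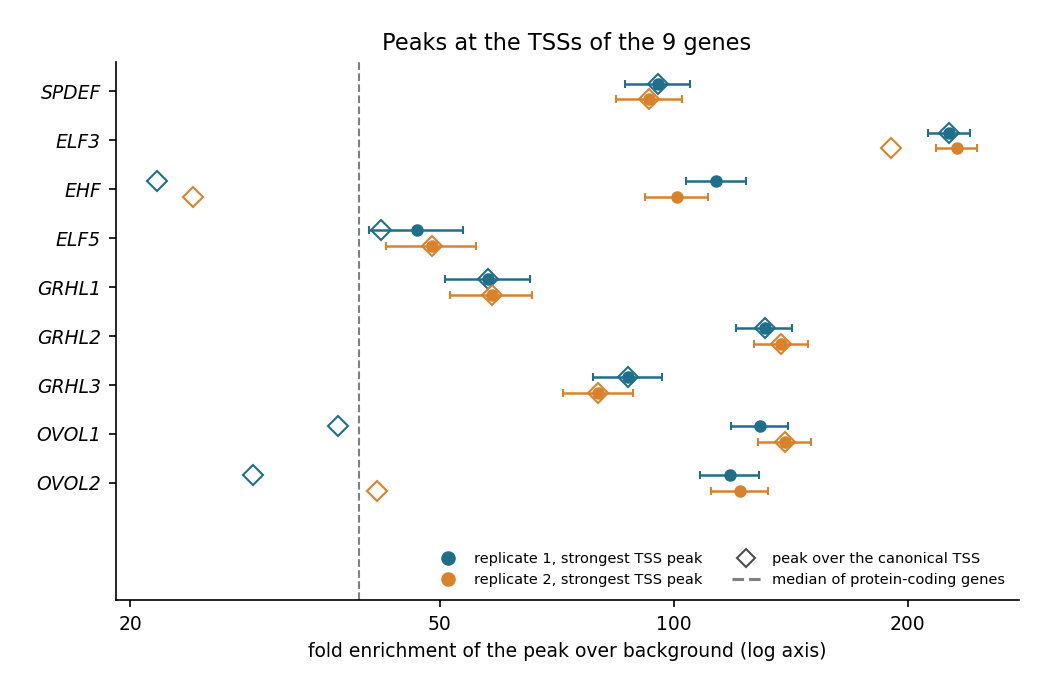
Fold enrichment over background (log axis) of the strongest TSS peak of each gene (circles, with exact 95% Poisson intervals for the reads at the peak) and of the peak over the canonical TSS (open diamonds), in replicate 1 (blue) and replicate 2 (orange); the dashed line is the median of protein-coding genes, 39.4. ELF3 lies highest at 226 and 232, ELF5 lowest among the circles at 46.7 and 48.9, and the diamonds of EHF lie below those of ELF5. The diamond of OVOL1 in replicate 2 is the height of a single wide peak over its canonical and inner starts. Those of ELF3 are likewise heights of wide peaks over all of its starts.

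ELF3, which drives barrier and keratinization genes in epithelia, had the strongest TSS peak of the 9. Its fold enrichment was 226 in replicate 1 and 232 in replicate 2, higher than 99.67% and 99.69% of protein-coding genes. These correspond to 982 reads at the peak (95% exact Poisson interval 922 to 1045) and 1046 reads (984 to 1111). The gene lay within 1 open region of 12857 bp, chr1:202007245-202020101, so that 99.4% of its body of 9239 bp was under peaks. Replicate 1 had a single peak over all 9 annotated TSSs. Replicate 2 had a gap in the gene, with a peak of 190 over all 9 TSSs and a separate peak of 232 after them, which counts as a TSS peak because it begins within 1 kb of the TSS of ELF3-206. The position of the highest point within these peaks is not known here, so the value cannot be assigned to a single TSS. Nor can it be assigned to ELF3 alone, as TSSs of ELF3-AS1 and ENSG00000249007 also lie in this region or within 1 kb of it.

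The open chromatin of ELF3 continued downstream. In the intergenic stretch after the gene, 4 further regions stood out in both replicates. They lay 12197, 24273, 36466 and 46802 bp from the canonical TSS, with values of 148 and 151, 146 and 151, 150 and 156, and 223 and 227 in replicates 1 and 2. The farthest, chr1:202055700-202059077, was nearly as high as the TSS peak, 223 beside 226 in replicate 1 and 227 beside 232 in replicate 2. Of the whole ELF3 window, 33.5% was under peaks, which was higher than for 97.9% of protein-coding genes.

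SPDEF, an ETS factor of secretory cells that is also linked to androgen and estrogen receptor activity, had both of its TSSs under 1 peak of 95.5 and 93.1. This peak, of 414 reads (375 to 456) and 420 reads (381 to 462), ranked above 85.7% and 84.0% of protein-coding genes. Stronger regions lay inside and beyond the gene. The strongest, chr6:34535249-34540519, covered the 3′ end of SPDEF and had a fold enrichment of 148 and 161. A second region in the gene, chr6:34543222-34548602, had 118 and 113. Beyond the 3′ end, regions in the neighboring gene PACSIN1 had 127 and 129 at 23940 bp from the TSS, 108 and 102 at 26392 bp, and 72.5 and 79.4 at 28986 bp. On the other side, 46540 bp upstream in an intron of ILRUN, a region of 900 bp had 122 and 124.

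SPDEF had the highest share of its window under peaks among the 9 members, although by gene body alone ELF3 was higher. Its window was covered to 35.7% in replicate 1 and 37.8% in replicate 2, higher than 98.5% of protein-coding genes, and 85.5% of its gene body was covered. Regions of at least 5 kb lay on the gene bodies of 3 of 9 members, SPDEF, ELF3 and OVOL1, beside 1.56% of protein-coding genes. Among all open regions, 4 of the 372 in the member windows (1.08%) were this wide, beside 0.119% across the genome.

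**Figure D2:**
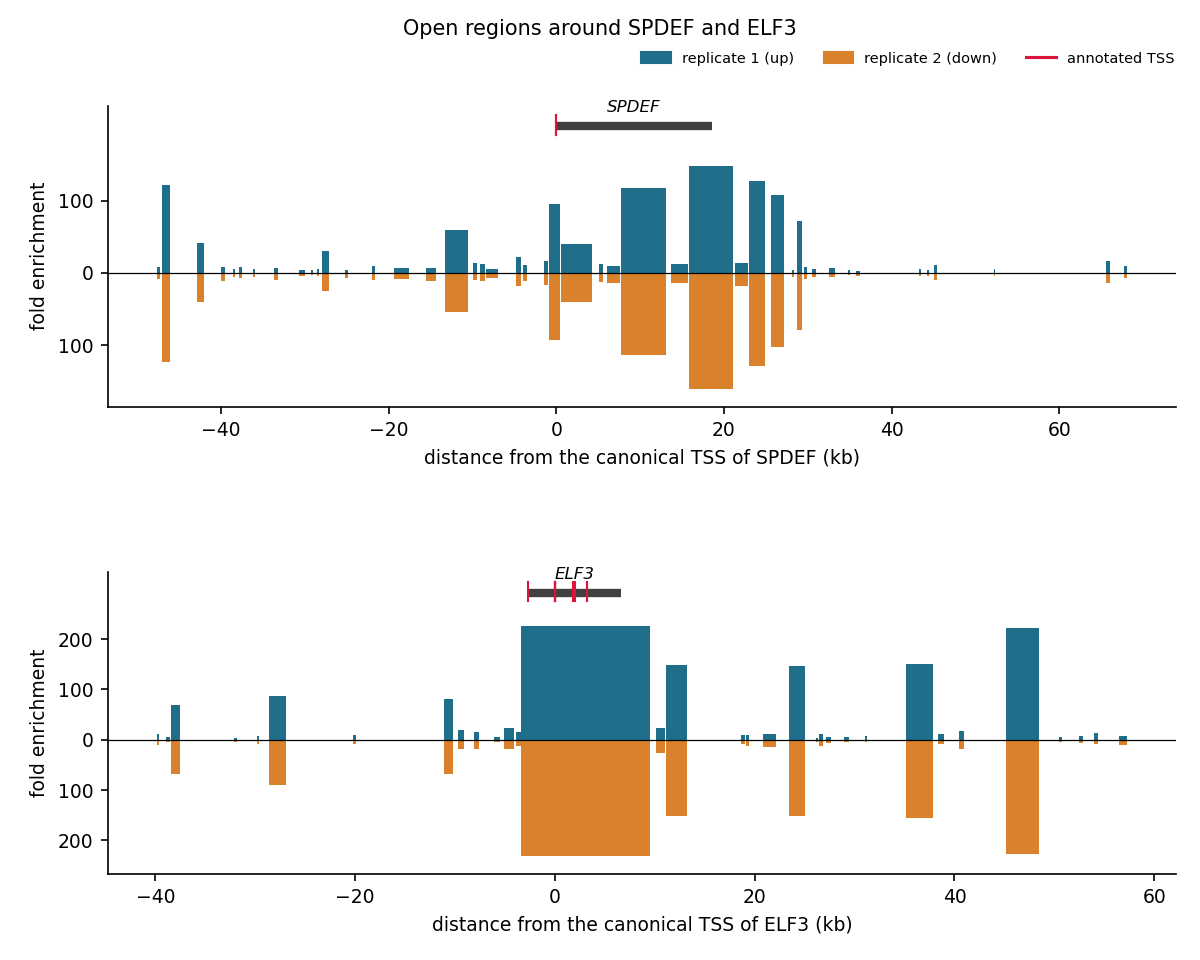
Open regions around SPDEF (top) and ELF3 (bottom), drawn to scale by distance from the canonical TSS in kb along the direction of transcription, with a minimum drawn width of 0.15 kb; bars up give the fold enrichment in replicate 1 and bars down that in replicate 2, the gray bar is the gene and red ticks are annotated TSSs. The bar over ELF3 is 12857 bp wide, and both replicates show the same tall regions beyond the 3′ end of each gene.

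EHF, which acts in mucosal and glandular epithelia, had stronger peaks inside the gene than at its canonical promoter. The peak over its canonical TSS had a fold enrichment of 21.6 in replicate 1 and 24.1 in replicate 2. These values were above 77.6% and 80.3% of all peaks of the replicate. Along the gene, the TSSs of EHF-207, EHF-209 and EHF-203 had a peak of 33.8 and 28.5, and that of EHF-210 had 71.3 and 61.0. The strongest TSS peak, 113 and 101, was an intronic peak of 1788 bp in replicate 1 and 1817 bp in replicate 2. It counts as a TSS peak because it ends within 1 kb of the TSS of EHF-206, whose own covering peak had only 8.51 and 6.19. All 11 TSSs of EHF had a peak within 1 kb in both replicates. Further along lay an intronic region of 2099 bp with 87.9 and 87.6 and, past the gene end, an intergenic region with 101 and 95.7 at 47175 bp from the canonical TSS.

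ELF5 had the lowest strongest TSS peak of the 9, 46.7 and 48.9, higher than 56.4% and 56.8% of protein-coding genes. The reads at this peak numbered 202 (175 to 232) and 220 (192 to 251). It came from a pair of neighboring regions at the canonical TSS: the region over the TSS had 42.1 and 48.9, and one 753 bp into the gene had 46.7 and 46.2. Of the 6 distinct TSSs of ELF5, 3 had a peak within 1 kb, all at the canonical cluster. The TSSs at 34511799 and 34511828 were 1052 and 1023 bp from the nearest peak of replicate 1, just outside the limit, and 1067 and 1038 bp from that of replicate 2. The most upstream TSS, at 34525193, was 8790 bp from the nearest peak in replicate 1 and 8768 bp in replicate 2.

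The start that RefSeq lists for ELF5 gave a further view. Of the 9 members, 6 matched the RefSeq promoter table (GRCh38.p14; 250 bases before to 50 after the start) with 8 windows, and a peak overlapped 7 of the 8 windows in both replicates, beside 66.0% of the windows of protein-coding genes. The window without a peak in either replicate was that of ELF5, chr11:34511675-34511974. The windows of EHF in this table belong to inner starts and had 33.8 and 28.5, and 71.3 and 61.0.

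SPDEF, ELF3 and EHF were then set against ELF5. By the strongest TSS peak, each exceeded ELF5 in both replicates, with ratios of 2.04 and 1.90 for SPDEF, 4.84 and 4.74 for ELF3, and 2.43 and 2.07 for EHF. On the log2 scale the mean differences were 0.98 ± 0.07 for SPDEF, 2.26 ± 0.02 for ELF3 and 1.16 ± 0.16 for EHF (SD, n = 2), and all were larger than the spread between replicates. The intervals for the reads at the peaks of ELF5 did not overlap with those of the 3 genes in either replicate, although they cover counting error only and reads from amplified copies are not independent.

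The contrast for EHF depended on which TSS was used. At the canonical TSS the ratio of EHF to ELF5 was 0.463 in replicate 1 and 0.493 in replicate 2, a log2 difference of -1.07 ± 0.06 (SD, n = 2), so that EHF lay below ELF5. The reads at the canonical EHF peak numbered 93 (75.1 to 114) and 108 (88.6 to 130), below the intervals for ELF5. SPDEF kept the ratios of 2.04 and 1.90 and ELF3 had 4.84 and 3.90. The ELF3 ratios rest on wide peaks over all of its TSSs, whose heights cannot be placed at the canonical one.

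EHF and ELF5 are neighbors on chromosome 11, with canonical TSSs 107299 bp apart, and share the same surroundings. The gene body of EHF was under peaks for 30.4% and 30.0% of its length, with 20 open regions, and that of ELF5 for 5.67% and 5.24%, with 6. The 95899 bp between them held 22 regions and had 9.29% and 10.2% under peaks. Both windows shared 2 regions at LINC02707, of which the stronger had 71.8 and 71.6. The strongest region of the ELF5 window away from any TSS, chr11:34537622-34538218, lay 24126 bp upstream of ELF5 in an intron of ENSG00000255271. Its fold enrichment of 65.1 and 64.8 exceeded that of the ELF5 TSS peak in both replicates, and its middle holds the AP-1 sequence shown above. The ELF5 window as a whole was covered to 6.81%, higher than for 56.2% of protein-coding genes, and that of EHF to 14.6% (82.7%).

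**Figure D3:**
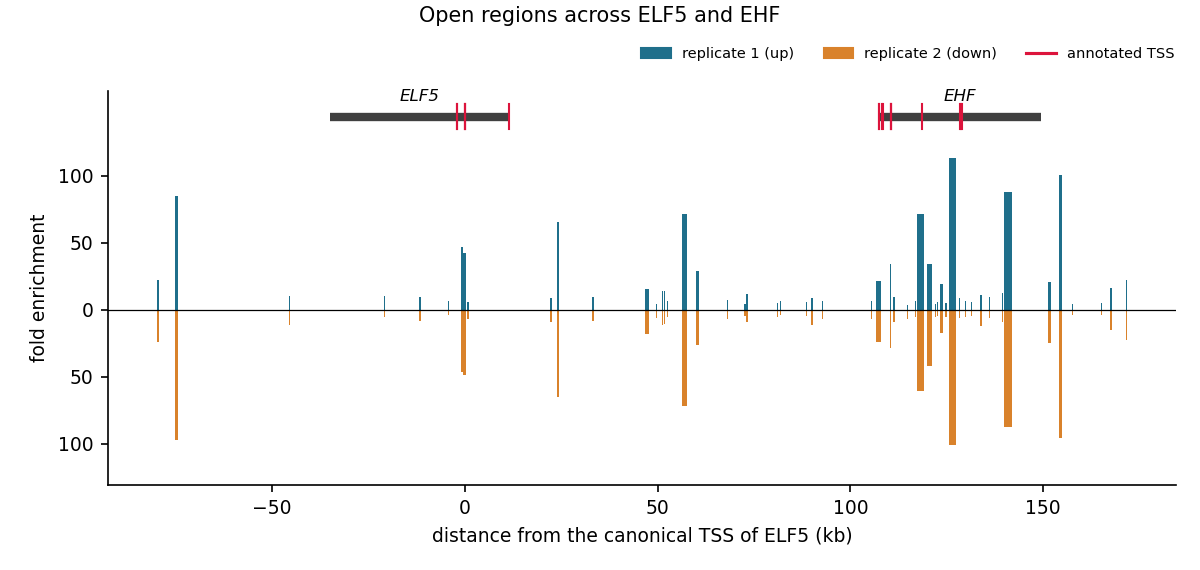
Open regions across ELF5 and EHF by distance from the canonical TSS of ELF5 in kb, in the direction from ELF5 to EHF, with a minimum drawn width of 0.15 kb; bars up give the fold enrichment in replicate 1 and bars down that in replicate 2, gray bars are the genes and red ticks are annotated TSSs. The tallest bars, 113 and 101, lie inside EHF, and the body of ELF5 holds 6 regions, the highest at its canonical TSS.

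Copies of DNA differ along the genome of a cancer cell line and scale the number of reads, but they were not measured here, and their part in these values was not tested. The median fold enrichment of peaks within 5 Mb was 8.74 and 8.40 around ELF5 and EHF, 7.36 and 7.74 around SPDEF, and 8.05 and 7.74 around ELF3. Divided by this local median, the strongest TSS peak was 13.0 and 12.0 for SPDEF, 28.1 and 29.9 for ELF3, 13.0 and 12.0 for EHF, and 5.34 and 5.82 for ELF5. SPDEF and ELF3 lay above ELF5 on this scale too. EHF and ELF5 were divided by the same local median, so their ratio could not change, at the strongest TSS peak or at the canonical TSS. Ranked among the protein-coding genes within 10 Mb, SPDEF exceeded 70.6% and 68.4% of 446 genes, ELF3 98.8% of 162 in both replicates, EHF 98.6% and 97.1% of 69, and ELF5 63.2% and 66.2% of 68. SPDEF ranked lower among these neighbors than among all genes.

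Among the grainyhead genes, GRHL2 had the most accessible promoter. GRHL2, the family member best known for holding the epithelial state of breast and lung cells, had a peak of 131 and 138 at its canonical TSS. This peak ranked above 94.4% and 95.3% of protein-coding genes, and above 86.9% and 85.7% of the 84 within 10 Mb. Its window, the longest of the 9 at 277288 bp, held 83 open regions, 56 of them on the gene body. The strongest away from a TSS were intronic, with 115 and 119 at 111588 bp from the canonical TSS and 105 and 118 at 91126 bp. The inner TSS of GRHL2-204 had a lower peak of 15.0 and 13.3.

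GRHL3, which acts in epidermal barrier formation and wound closure, had 87.4 and 80.0 at its canonical TSS. Its annotated gene is long because the transcript GRHL3-211 begins far upstream, and the peak at that start had only 8.97 and 7.52. Close to that start, 117080 bp upstream of the canonical TSS, a region overlapping LINC02800 had 100 and 105, which exceeded the TSS peak. Intronic regions 24638 and 29140 bp before the canonical TSS had 70.4 and 61.3, and 57.8 and 63.5.

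GRHL1, which acts in desmosome gene regulation and hair anchorage, had the lowest TSS peak of its family, 57.8 and 58.4, higher than 65.1% and 64.0% of protein-coding genes. Its 3 inner TSSs had no peak within 1 kb in either replicate. A region 7108 bp upstream, in the transcript ENSG00000287305, was about as high as the promoter, with 55.9 and 59.7. GRHL1 was below GRHL3 and GRHL3 below GRHL2 in both replicates.

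OVOL1 and OVOL2, repressors of the mesenchymal program, had strong TSS peaks. That of OVOL1 was higher than 94.2% and 95.4% of protein-coding genes and that of OVOL2 higher than 92.3% and 92.5%. Among protein-coding genes within 10 Mb, these ranks were 91.3% and 91.7% of 471 for OVOL1 and 86.9% and 88.1% of 84 for OVOL2. In OVOL1 the peak boundaries differed between replicates. Replicate 1 had a peak of 37.0 over the canonical TSS and a separate peak of 129 at the inner start of OVOL1-203, while replicate 2 had a single peak of 8358 bp with 139, so that the value at the canonical TSS is known from replicate 1 only. A TSS of OVOL1-AS1 also lies in this stretch of 8358 bp or within 1 kb of it. In OVOL2 the canonical TSS was covered by a peak of 28.8 and 41.6, and the stronger peak of 118 and 122 lay over the TSSs of OVOL2-203, OVOL2-204 and OVOL2-205 upstream of it. The window of OVOL1 was covered to 21.8% and that of OVOL2 to 11.5%, higher than for 92.4% and 75.0% of protein-coding genes. OVOL1 also had the lowest share of stretches found in both replicates, 25 of 39 (64.1%, 48.4 to 77.3).

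**Figure D4:**
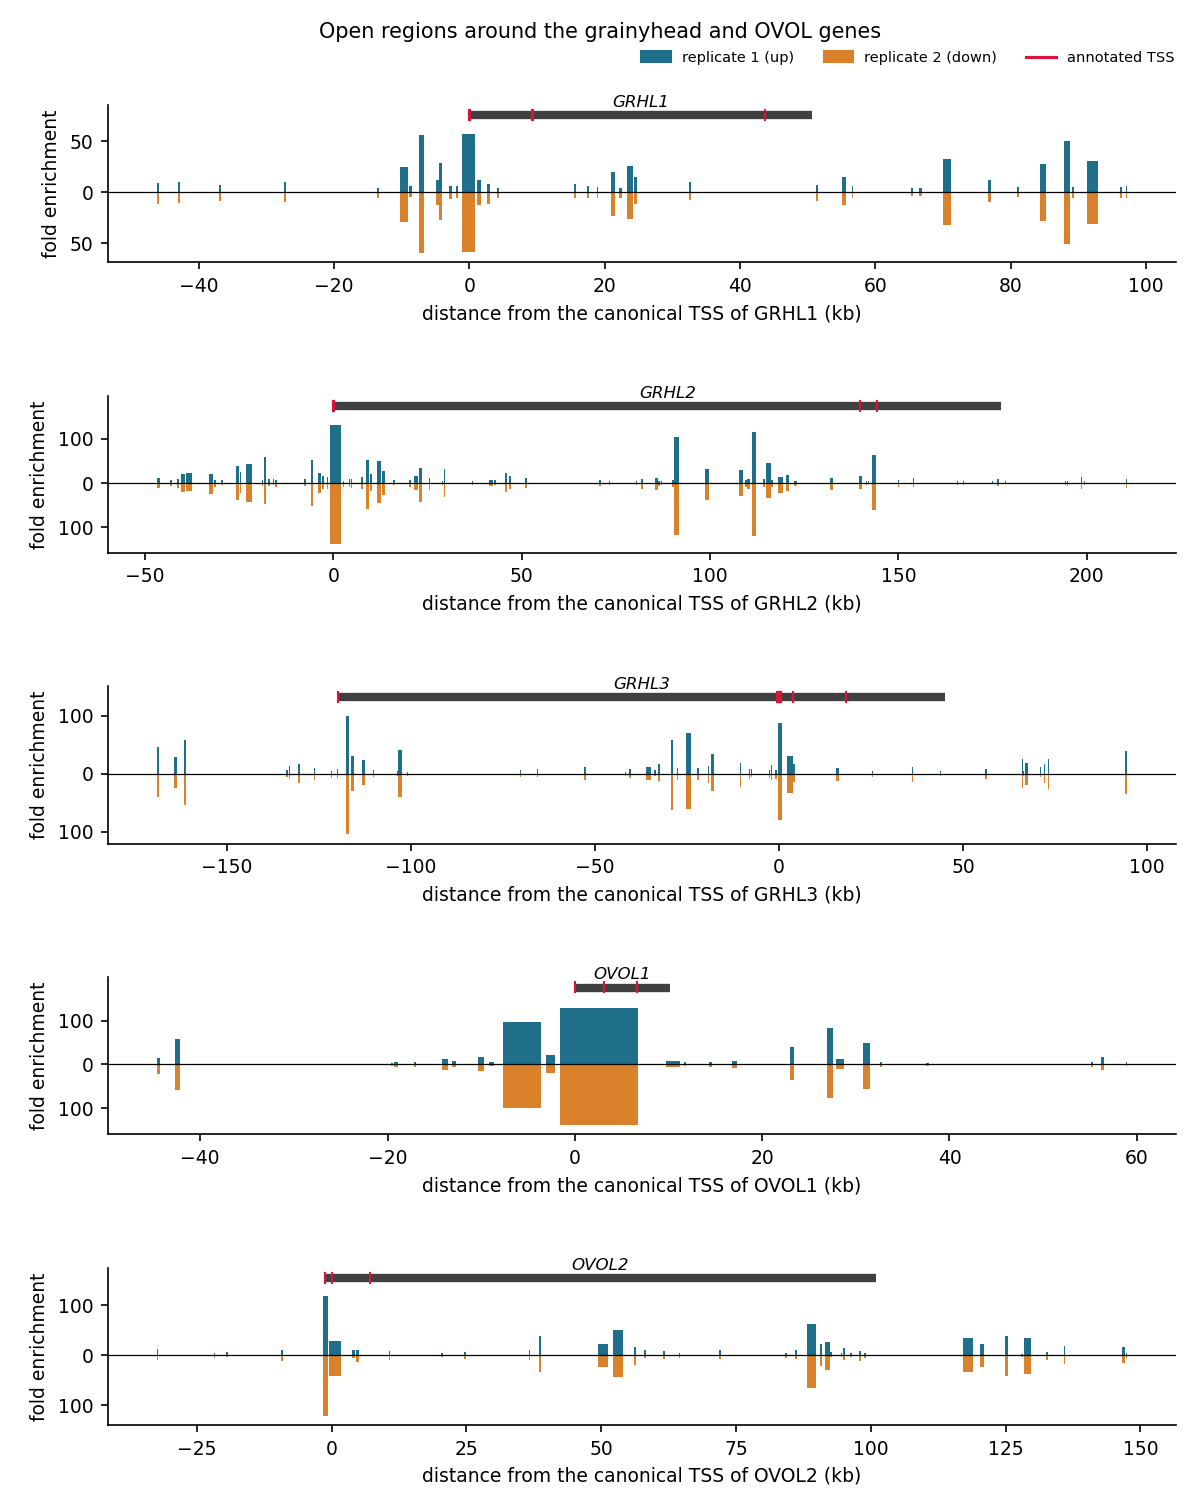
Open regions around GRHL1, GRHL2, GRHL3, OVOL1 and OVOL2 by distance from the canonical TSS in kb along the direction of transcription, with a minimum drawn width of 0.15 kb and a separate vertical scale in each panel; bars up give the fold enrichment in replicate 1 and bars down that in replicate 2, gray bars are the genes and red ticks are annotated TSSs. GRHL2 shows tall intronic regions 91126 and 111588 bp from its TSS, and GRHL3 a tall region 117080 bp before its canonical TSS.

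The balance between promoter and distal regions varied among the members. The strongest region away from any TSS exceeded the strongest TSS peak in 3 of 9 members (SPDEF, ELF5 and GRHL3), beside 58.5% of protein-coding genes. The genes tested for that share include 3726 without a TSS peak in either replicate. These pass with any region away from a TSS, so the share is not a like reference for the members. For GRHL1 the strongest region away from a TSS and the TSS peak were nearly equal, with means of 57.8 and 58.1. OVOL2 had the largest gap, with 47.2 for its strongest region away from a TSS and 120 at its TSS. Of the 372 open regions, 27 lay at a TSS of a member, 38 at a TSS of another gene, 134 on a member gene away from any TSS and 173 outside the member genes.

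**Figure D5:**
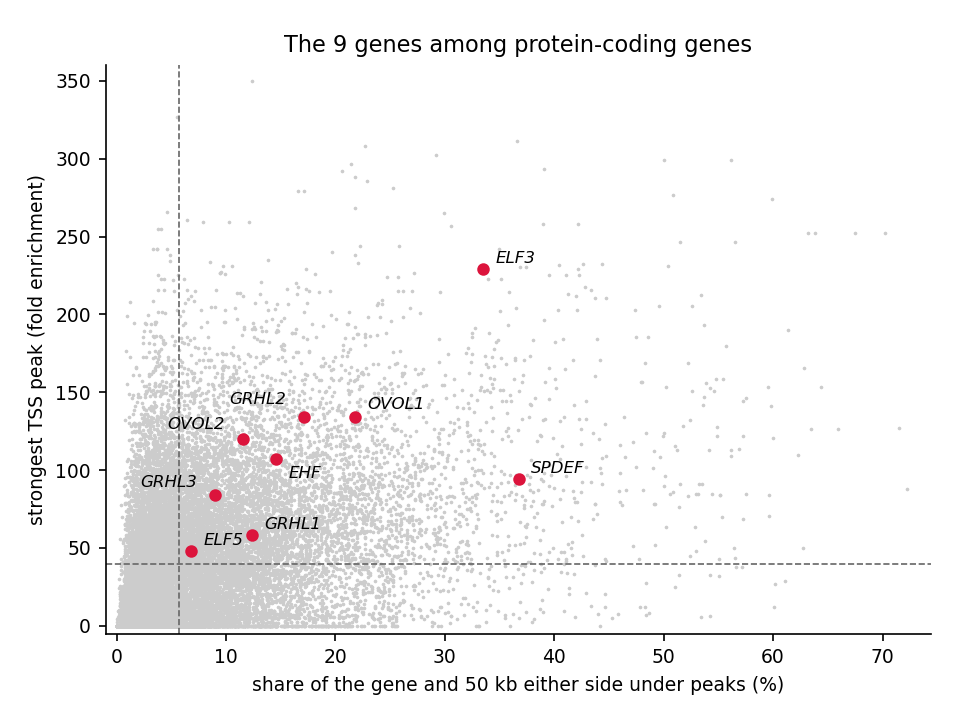
Share of the gene and 50 kb either side under peaks (%, horizontal) against the strongest TSS peak (fold enrichment, vertical), both as means of the replicates, for 20033 protein-coding genes (gray) and the 9 members (red); dashed lines are the medians, 5.72% and 39.4. All 9 members lie above both medians, with SPDEF and ELF3 farthest to the right and ELF5 nearest to the medians.

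The promoters of the members fell into CpG-poor and CpG-rich. Most human promoters overlap CpG islands, which are often accessible regardless of tissue, whereas CpG-poor promoters are more often tissue-restricted. Over 500 bp either side of the canonical TSS, the ratio of observed to expected CpG was 0.191 for SPDEF, 0.271 for ELF3, 0.123 for EHF, 0.395 for ELF5 and 0.402 for GRHL3, all below the threshold of 0.6. All 5 of these TSSs had a peak in both replicates, beside 42.4% of 6754 CpG-poor canonical TSSs. The other 4 members had 0.645 (GRHL2), 0.639 (OVOL2), 1.01 (GRHL1) and 1.02 (OVOL1). All 4 had a peak, beside 89.3% of 13277 CpG-rich TSSs. The 4 ETS members thus all had CpG-poor canonical promoters, beside 33.7% of protein-coding genes.

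Sequence matches to the families' own sites were counted on both strands in the middle 200 bp of each region. The short ETS core AGGAAG was in 94 of 372 member regions (25.3%), beside 25.2% of all open regions, and the longer ETS sequence CCGGAAG in 1 (0.269%), beside 1.58%. CCGGATG was in 0 of 372, beside 0.721%. Of the grainyhead sequences, AACNNGTT was in 13 (3.49%), beside 4.46%, and its palindromic form AACCGGTT in 0, beside 0.146%. CCGTTA, the OVOL core, was in 3 (0.806%), beside 0.958%. The AP-1 sequence TGANTCA was in 45 (12.1%), beside 10.1%. Matches to CCGGAAG contain no AGGAAG, whereas AACCGGTT is also counted as AACNNGTT. Over whole regions, which had a median width of 427 bp in the member windows and 363 bp across the genome, the shares were 52.2% beside 46.1% for AGGAAG, 3.49% beside 4.24% for CCGGAAG, 1.88% beside 2.18% for CCGGATG, 11.0% beside 8.92% for AACNNGTT, 0.806% beside 0.282% for AACCGGTT, 5.11% beside 2.83% for CCGTTA and 25.3% beside 18.9% for TGANTCA. Between the middle 200 bp and whole regions, the direction of the difference from all regions thus changed for AACNNGTT, AACCGGTT and CCGTTA. For AGGAAG it was reversed in the middle 100 bp, with 12.6% beside 13.4%.

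The same letters were searched for in the 200 bases before the canonical TSS of 5 members, SPDEF, ELF3, ELF5, GRHL1 and GRHL3, and of 20031 protein-coding genes. AGGAAG was there in 2 of the 5, SPDEF and GRHL3, beside 23.0% of the genes. CCAAT was in 4 of the 5, SPDEF, ELF3, GRHL1 and GRHL3, beside 30.4%. TGTTTAC was in ELF5 alone of the 5, beside 1.59%, and TATAAA in ELF3 alone, beside 7.81%. None of the 5 held CCGGAAG, which 10.8% of the genes held, and none held the grainyhead, OVOL or AP-1 letters given above. The ELF3 sequence shown above lies before its most upstream start and not its canonical TSS, and holds AGGAAG, while that of EHF-210 holds TGTTTAC. The CCAAT, forkhead and TATAAA letters were searched for after sequences of these promoters were seen. A match is a description of letters and not evidence that a factor binds there.

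The relatives of the members were examined by the same rule. Of 24 other ETS genes, 20 had a TSS peak in both replicates (83.3%, beside 79.3% of protein-coding genes), with a median of 46.3. The highest were ETV3 (163 and 152) and ETV5 (151 and 155), a target and mediator of growth factor signaling. ETS1, SPI1 (a factor of myeloid and B cells) and SPIC had no TSS peak in either replicate, and FEV had one of 4.42 in replicate 2 alone. All 4 ETS members lay above the median of their relatives by the strongest TSS peak, ELF5 only just. Of 4 other grainyhead-related and OVOL genes, UBP1 had 160 and 167, TFCP2L1 had 19.6 and 20.8, OVOL3 had 7.13 and 7.96, and TFCP2 had no peak within 1 kb of a TSS.

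Genes that these factors are known to act on, by activation or repression, were examined as a list. The list includes KRT8, KRT18, KRT19 and EPCAM, which were also used as luminal markers above. Of 21 listed genes, 19 had a TSS peak in both replicates (90.5%, beside 79.3% of protein-coding genes), with a median of 84.2, beside 39.4 for protein-coding genes. SPINT1, a membrane protease inhibitor, had 211 and 213. CLDN4, a tight junction protein, had 159 and 166, and RAB25 and ESRP2 had 146 and 144, and 132 and 144. The adherens junction gene CDH1 had 89.0 and 81.6. Other epithelial genes of the list were lower, with 57.5 and 54.6 for TFF3 and 44.6 and 40.9 for CLDN7. CDH3, with 34.7 and 38.5, and AGR2, with 25.1 and 25.4, lay below the median of protein-coding genes. TGFBR2 had the lowest TSS peak of the list called in both replicates, with 12.2 and 12.4. Of the mesenchymal regulators, SNAI2 had 41.0 and 46.4, ZEB1 had 23.0 and 23.0, and ZEB2 had a peak of 3.98 in replicate 2 alone. The milk protein gene CSN2, a known ELF5 target, had no TSS peak in either replicate.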

How the data were processed

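ATAC-seq peaks of 2 CAMA-1 replicates were analyzed. Per the submitters' processing notes, the authors trimmed reads with Trim Galore 0.6.5, aligned them to hg38 with Bowtie2 2.3.5.1 and called peaks in each replicate with MACS2 2.2.6. Caller settings, the treatment of duplicates and excluded regions are not given in the sources used here. Each peak in the deposited lists has 4 values: the fold enrichment, which is a ratio to the background of the caller, the −log10 q-value, the −log10 p-value and a score. The fold enrichment was the measure, the −log10 q-value served for filters, and the score and p-value columns were not used.

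Deposited fold enrichments were whole multiples of 0.230 in replicate 1 and 0.221 in replicate 2, departing by at most 7.16e-05 and 8.13e-05 of a step. Taking fold as (reads + 1) / (background + 1), this step gave 1 background level per replicate, the reads at each peak and their exact 95% Poisson intervals. Each peak has a single height however wide it is, and heights stand for the highest point of the peak at a position not used here. The medians were 8.28 and 7.96, and the lowest −log10 q-value was 2.24 and 2.07. A lower height has a wider relative interval, and peaks near this threshold are the least certain.

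Windows were the GENCODE 44 gene body with 50 kb either side. Peaks overlapping by at least 1 bp were merged across replicates. Percentiles are the share of 20033 protein-coding genes with a lower value. The members named are all 9, and regions named are the strongest at and away from TSSs, chosen by value in both replicates, together with TSSs that lack a peak; regions named further along a locus were chosen after their values were seen. From the gene lists, the genes named are the strongest and those without a peak, with others added after their values were seen. One listed marker and one promoter sequence are not reported here. One listed target, WAP, was not found in the annotation under that symbol. The members, gene lists and sequences searched were chosen with earlier results of these data known. With 1 condition, values are descriptions, n is 2, and no test was made. Whether the replicates came from separate cultures is given only as biological replicates in the labels. Python 3.11.15 with numpy 2.4.6, scipy 1.17.1 and matplotlib 3.10.9 was used, and the functions were tested on simulated data.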

Additional observations from a re-analysis of the deposited data

How the results depend on the processing

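No paired analysis was possible because there is 1 condition and so nothing to pair. The count of members with a TSS peak in both replicates stayed between 8 and 9 under every alternative tried. The contrast of EHF with ELF5 reversed from a log2 difference of 1.16 to -1.07 when only the canonical TSS was used. It was -0.99 when a peak had to cover that TSS. Both alternatives were chosen after seeing the data. At the most upstream TSS and in the RefSeq windows, EHF had a peak and ELF5 had none, so no ratio could be formed. SPDEF and ELF3 stayed above ELF5 under every alternative, though the heights of ELF3 cannot be placed at its canonical TSS. The median log2 difference of the 3 genes from ELF5 was 1.16, and was 1.49 by −log10 q, 1.06 for TSSs within 100 bp, 0.98 at the canonical TSS, 1.06 for peaks covering it, and 1.05 to 1.28 leaving out a replicate. This median does not show the change for EHF. Within 100 bp of a TSS, its strongest peak was that of EHF-210, 71.3 and 61.0, beside 42.1 and 48.9 for ELF5. EHF thus stayed above ELF5 there, by less than under the 1 kb rule.

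The median strongest TSS peak was 107 and became 94.3 within 100 bp, 88.1 at the most upstream TSS, 88.1 at the canonical TSS and 83.7 for peaks covering it. The last 3 medians take OVOL1 as 88.1, the mean of 37.0 and the wide peak of 139 of replicate 2, whose height at this TSS is not known. With OVOL1 at 37.0, from replicate 1 alone, an alternative chosen after seeing the data, they were 58.1, 83.7 and 58.1. The number of open regions, 372, was 166 on gene bodies, 215 with 10 kb either side and 85 among the 50000 strongest peaks of each replicate, as these take in less sequence or fewer peaks. The median share of a window under peaks, 14.6%, was 18.1% on gene bodies and 12.5% for peaks with −log10 q of at least 10. A reciprocal overlap of 50% moved the share of stretches found in both replicates from 81.8% to 76.7%. More than 3 kb from any TSS, the median strongest distal region fell from 98.1 to 79.6. AGGAAG was in 94 member regions in 200 bp, in 47 in 100 bp (12.6%, beside 13.4% of all regions) and in 194 over whole regions (52.2%, beside 46.1%). Counting each member separately as well, 331 values were recomputed, of which 203 stayed within the replicate spread, the interval or the 1.5-fold range allowed for counts, 126 moved beyond it and 2 reversed. For a single gene, leaving out 1 of 2 replicates always moves a mean by less than their SD. Such values, other than counts, therefore stayed within the spread by construction. The ratio of EHF to ELF5 also could not change on division by the local median, which they share. The tally is therefore not a measure of stability. What depth limits was not tested; stretches found in one replicate alone had fold enrichments of at most 7.96.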

Other observations

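The member windows also took in promoters of neighboring genes, of which 38 open regions lay at the TSS of a gene other than the members. In the ELF5 window, the promoter of CAT, the catalase gene, had the highest fold enrichment, 85.1 in replicate 1 and 97.3 in replicate 2, above the TSS peak of ELF5 itself. In the OVOL1 window, a region of 4022 bp at AP5B1 had 96.4 and 98.6, and in the OVOL2 window the promoter shared by MGME1 and SNX5 had 62.4 and 65.5. In the GRHL1 window, the promoter of KLF11, a zinc-finger factor, had 31.1 and 31.0, below that of GRHL1.

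The forkhead sequence TGTTTAC, which was searched for after the sequences were seen, was in 11 of 372 member regions (2.96%), beside 5.61% of all open regions. CCAAT was in 80 (21.5%), beside 23.3%, and TATAAA in 24 (6.45%), beside 8.06%.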
